A study of Mus musculus with 4 samples.

Results

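The 10 genes described here across the libraries of a study of heart precursor cells are 9 epithelial genes and 1 endothelial comparator: the surface protein gene Epcam, the tight junction claudin genes Cldn3, Cldn4, Cldn6 and Cldn7, the keratin genes Krt7, Krt8, Krt18 and Krt19, and Cldn5, the claudin gene of blood vessels. They were chosen by symbol, and each matched 1 of the 39179 gene identifiers in the deposited table, so that 10 of 10 were found. The cells were cardiac progenitor cells made from an inducible Gata6 line of mouse embryonic stem cells, and RNA sequencing libraries were made from total RNA. In the control group (DMSO, n = 2 libraries) the progenitors were kept for 2 days with the solvent dimethyl sulfoxide at 0.1% of the medium. In the treated group (cucurbitacin I, n = 2 libraries) they were kept for 2 days with 10 µM cucurbitacin I hydrate, a triterpenoid from plants that is used to block the kinase JAK2 and the factor STAT3. All 4 libraries come from this single cell line, and no label says whether the Gata6 transgene was switched on. Treatment began on day 6 of culture. The harvest is given as day 8 in the library titles and as day 10 in the protocol, and this could not be settled. No label says that replicate libraries are separate cultures, and the p-values then measure a spread between libraries that may be technical.

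Claudins are membrane proteins that assemble into the strands of tight junctions, where they seal the space between neighbouring epithelial or endothelial cells and set which ions pass. Keratins are the intermediate filament proteins of epithelia, in which a type II keratin such as Krt8 or Krt7 pairs with a type I keratin such as Krt18 or Krt19. Epcam is a homophilic adhesion protein of simple epithelia and of pluripotent stem cells, and it binds claudin-7 in the membrane. In the early embryo Cldn6, Epcam, Krt8 and Krt18 mark the first epithelia, including endoderm and trophectoderm, and Cldn5 marks endothelium. Differentiating stem cell cultures hold other cell types beside the cardiac lineage, so such transcripts can come from a minority of the cells.

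Library depth was 27069312 and 25573785 counts in the DMSO libraries and 26773886 and 23759431 counts in the cucurbitacin I libraries. Levels are given as CPM, in which a count is set against the total of its library, scaled between libraries by the trimmed mean of M-values (TMM). The labelled cell type was met by heart muscle genes: Tnnt2, which encodes cardiac troponin T, stood at 1880 and 2570 CPM in DMSO, and Nkx2-5, a cardiac transcription factor, at 47.7 and 38.2 CPM.

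The genes lie on 5 chromosomes (mm10). The keratin genes Krt7, Krt8 and Krt18 share chromosome 15, at 101411043 to 101430313 on the plus strand, 101996711 to 102004342 on the minus strand and 102028216 to 102032026 on the plus strand. Krt8 and Krt18 are thus neighbours. Krt19 is on chromosome 11 from 100140810 to 100148665 on the minus strand, and Cldn7 on the same chromosome from 69964779 to 69967885 on the plus strand. Chromosome 17 carries Cldn6 from 23679365 to 23682446 and Epcam from 87635979 to 87651106, both on the plus strand. Cldn4, at 134945126 to 134946934 on the minus strand, and Cldn3, at 134986214 to 134987476 on the plus strand, are neighbours on chromosome 5. Cldn5 is on chromosome 16 from 18776847 to 18778260 on the plus strand.

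Proximal promoter sequence shows the member genes as the genome writes them and was read from RefSeq windows of 250 bases before to 50 bases after each start site (GRCm38.p6, the assembly of mm10), which held 9 of the 10 genes. A set of 4 motifs was searched on both strands: the E-box CACCTG, read as CAGGTG on the other strand, the GC box GGGCGG, the TATA box TATAAA and the Grainyhead-type site AACCNGTT. No motif contains another, and they were chosen with the members' values known. CACCTG is the letter string that zinc finger repressors of the Snail and Zeb families are known to bind in the mouse Cdh1 promoter. Cldn7 has 2 windows, and the one shown, which lies within the gene, was taken because it holds this string. The other Cldn7 window held none of the 4 motifs. Krt7 is not shown. The 7 stretches below are the bases just before a start site of 7 of the genes. Each CACCTG or CAGGTG is in capitals, 5′ to 3′ on the strand of the gene.
Epcam, chr17:87635729-87635978, plus strand: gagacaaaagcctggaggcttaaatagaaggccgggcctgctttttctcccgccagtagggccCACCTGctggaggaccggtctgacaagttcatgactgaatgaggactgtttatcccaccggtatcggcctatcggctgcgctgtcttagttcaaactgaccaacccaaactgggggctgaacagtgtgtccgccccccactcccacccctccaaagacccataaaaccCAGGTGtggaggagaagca
Cldn6, chr17:23679245-23679364, plus strand: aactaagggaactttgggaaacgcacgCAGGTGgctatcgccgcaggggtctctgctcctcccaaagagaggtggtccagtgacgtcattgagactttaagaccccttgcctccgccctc
Cldn7, chr11:69965301-69965420, plus strand: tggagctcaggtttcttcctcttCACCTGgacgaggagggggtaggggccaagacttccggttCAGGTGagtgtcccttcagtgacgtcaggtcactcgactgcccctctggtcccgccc
Cldn4, chr5:134946935-134947054, minus strand: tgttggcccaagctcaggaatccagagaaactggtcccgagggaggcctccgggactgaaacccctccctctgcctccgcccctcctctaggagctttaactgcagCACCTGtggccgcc
Krt8, chr15:102004343-102004462, minus strand: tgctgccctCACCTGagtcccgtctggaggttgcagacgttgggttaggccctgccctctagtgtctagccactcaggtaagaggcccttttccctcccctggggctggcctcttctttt
Krt18, chr15:102027966-102028215, plus strand: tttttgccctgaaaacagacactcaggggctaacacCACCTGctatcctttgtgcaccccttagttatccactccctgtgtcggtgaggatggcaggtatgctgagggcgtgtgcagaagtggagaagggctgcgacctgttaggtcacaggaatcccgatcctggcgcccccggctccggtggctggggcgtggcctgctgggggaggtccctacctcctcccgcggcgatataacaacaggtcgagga
Cldn5, chr16:18776727-18776846, plus strand: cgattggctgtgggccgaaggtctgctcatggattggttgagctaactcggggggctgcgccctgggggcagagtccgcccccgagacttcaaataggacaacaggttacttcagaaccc

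The CACCTG string was present in at least 1 window of 8 of the 9 genes, and Cldn5 was the gene without it. Among all 32851 RefSeq promoter windows 20.2% held it, and among 27025 genes 22.6% held it in at least 1 window. Epcam and Cldn7 carried 2 copies each before the start, at 187 and 19 bases in Epcam and at 97 and 57 bases in the second annotated start of Cldn7. Krt8 held it at 111 and Krt18 at 214 bases before the start. GGGCGG was in 7 of the 9 genes against 38.2% of all genes, TATAAA in Krt8 alone against 15.7%, and AACCNGTT in Cldn5 alone against 2.3%. The TATAAA matches of Krt8 began only 3 and 1 bases before its start. A match is a run of letters and not a measured site, and these windows were searched with no binding data.

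The question put to the libraries was whether levels of these genes differed between cucurbitacin I and DMSO. Epcam, Cldn6, Cldn7, Krt7 and Cldn5 fell, by between 4.44 and 27.2 times, and Krt8, Krt18, Krt19 and Cldn4 did not pass the test. By edgeR's quasi-likelihood test with Benjamini-Hochberg adjustment over 16722 genes at 0.05, 5 of the 9 tested members fell, 0 rose and 4 did not pass, and Cldn3 had too few counts to be tested. Among all genes tested 33.4% were called, 19.5% lower and 13.9% higher in cucurbitacin I. Of all calls 58.4% were lower, and 81.8% with library totals as the only scaling. Neither DESeq2 nor limma-voom called a member higher, and 0 members were higher at an unadjusted p under 0.05. The median log2 fold change of the 9 tested members was -2.25, and of all genes tested -0.01. The CPM of the 2 groups did not overlap, with cucurbitacin I lower, for 6 of the 9 tested members, as for 37.4% of all genes tested. In such bulk libraries, fewer cells of a type and less RNA per cell cannot be told apart.

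**Figure D1:**
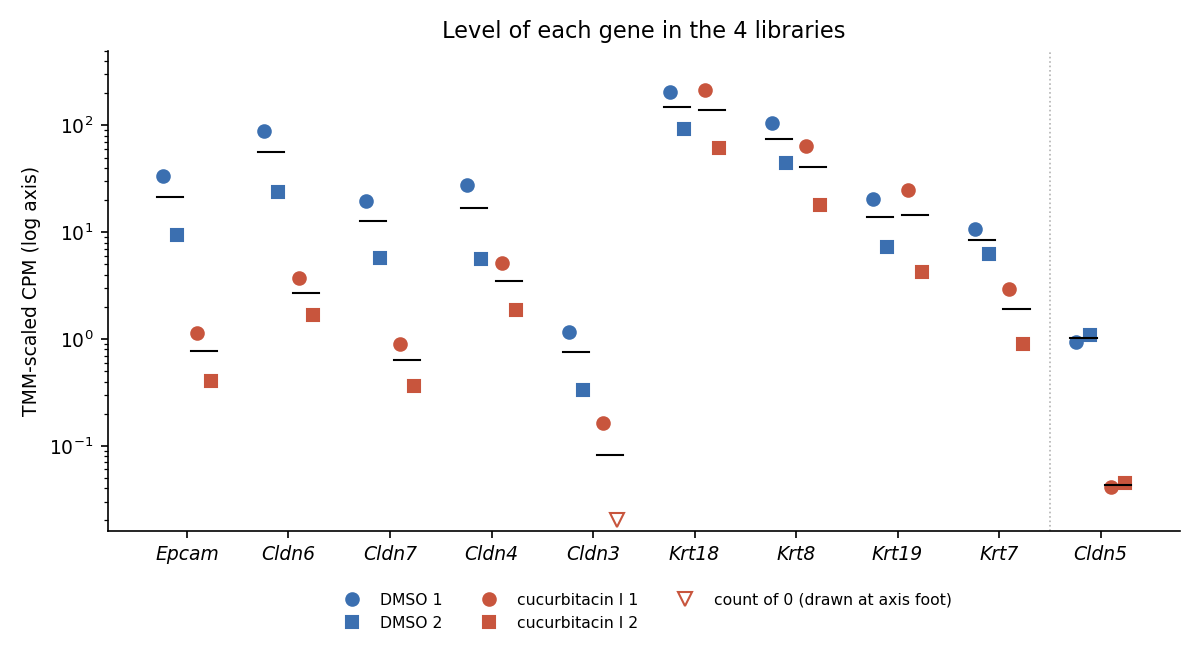
Level of each of the 10 genes in each library, in TMM-scaled CPM on a log axis; circles are library 1 and squares library 2 of a group, blue is DMSO and red cucurbitacin I, and the black line is the group mean. The groups stand apart for Epcam, Cldn6 and Cldn7, and overlap for Krt8, Krt18 and Krt19; the dotted line sets off the endothelial Cldn5.

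Epcam had the largest estimated fall of the 9 tested genes, within 1 SE of those of Cldn5, Cldn6 and Cldn7. It stood at 33.7 and 9.39 CPM in the DMSO libraries, from 1008 and 255 counts, and at 1.15 and 0.407 CPM in the cucurbitacin I libraries, from 28 and 9 counts. The means were 21.5 ± 17.2 CPM with the solvent and 0.777 ± 0.524 CPM with the compound (SD, n = 2 each). Both treated libraries were thus lower than both controls, and DMSO library 1 was the highest of the 4. The log2 fold change was -4.77 (SE 0.80), with an adjusted p of 0.0114 by edgeR's quasi-likelihood test. Leaving out DMSO library 1 gave -3.57 with an edgeR adjusted p of 0.0251, and leaving out cucurbitacin I library 1 gave -5.71 with 0.0117. Of all genes tested 1.67% had a lower log2 fold change.

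Cldn6, a claudin of embryonic epithelia, fell by a like amount. It was at 88.5 and 24 CPM in DMSO and at 3.69 and 1.67 CPM in cucurbitacin I, so that the groups did not overlap. The group means were 56.3 ± 45.6 and 2.68 ± 1.43 CPM (SD, n = 2 each), a log2 fold change of -4.38 (SE 0.75) with an edgeR adjusted p of 0.0118. Without DMSO library 1 it was -3.15, and without cucurbitacin I library 1 it was -5.06, with edgeR adjusted p of 0.022 and 0.0123. Cldn9, which lies beside Cldn6, held 12, 3, 0 and 0 counts in the 4 libraries and was named here after its values were seen.

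Cldn7, the claudin that binds Epcam, was at 19.4 and 5.71 CPM in DMSO and at 0.901 and 0.361 CPM in cucurbitacin I. Here too both treated libraries were below both controls. The means were 12.6 ± 9.71 and 0.631 ± 0.382 CPM (SD, n = 2 each), and the log2 fold change was -4.29 (SE 0.76; edgeR adjusted p = 0.0129). It was -3.15 without DMSO library 1 and -5.10 without cucurbitacin I library 1 (edgeR adjusted p of 0.0306 and 0.0138). For Epcam, Cldn6 and Cldn7 alike, the adjusted p stayed below 0.05 in all alternatives run at that threshold, with highest values of 0.0474, 0.0429 and 0.044, each from limma-voom.

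Cldn4, a claudin of tight epithelia and a receptor of Clostridium perfringens enterotoxin, did not pass the test although the groups were apart. Its levels were 27.8 and 5.67 CPM in DMSO and 5.12 and 1.85 CPM in cucurbitacin I. DMSO library 2 and cucurbitacin I library 1 were nearly level, and DMSO library 1 was several times above them. The log2 fold change was -2.25 (SE 0.83) with an edgeR adjusted p of 0.0903. Without DMSO library 1 it was -0.69 (0.486), and without DMSO library 2 it was -2.98 (0.0254). With no filter on low counts the edgeR adjusted p was 0.0331, and in the authors' deposited table Cldn4 had a log2 fold change of -1.45 with an adjusted p of 0.04.

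Cldn3, another claudin bound by that enterotoxin, was scarce, with 35 and 9 counts in DMSO and 4 and 0 counts in cucurbitacin I. Its levels were 1.17 and 0.331 CPM in DMSO and 0.164 and 0 CPM in cucurbitacin I. The summed counts gave a DMSO to cucurbitacin I ratio of 8.97, with a 95% interval of 3.26 to 34.4 that covers counting error only. It was 3.85 without DMSO library 1, 13.6 without DMSO library 2 and 4.70 without cucurbitacin I library 2. With no filter on low counts the log2 fold change was -3.08, with an adjusted p of 0.0463 by edgeR and 0.0878 by DESeq2. An antisense gene, Wbscr25, overlaps its exon and held 8 counts in all, 16.7% of those of Cldn3. No source used here gives the strand setting of the counting, so reads of the 2 genes may not be separated.

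Cldn5, the claudin of endothelial junctions, fell beside endothelial genes. It was at 0.935 and 1.10 CPM in DMSO, from 28 and 30 counts, and at 0.0410 and 0.0452 CPM in cucurbitacin I, from 1 count in each library. The DMSO replicates lay close together, unlike those of the epithelial claudins, and 1 count in each treated library cannot show a spread. The summed counts gave a ratio of 23.6 with a 95% counting interval of 6.26 to 200, and the log2 fold change was -4.42 (SE 0.54; edgeR adjusted p = 0.00535). Of 15 endothelial marker genes tested, 10 fell, 0 rose and 5 did not pass, where 19.5% of all genes tested fell. The median log2 fold change of these markers was -2.27. Their summed level was 179 and 229 CPM in DMSO and 37.0 and 46.1 CPM in cucurbitacin I. The log2 fold change was -3.09 for Kdr, a receptor of vascular endothelial growth factor, and -3.84 for Ramp2, a co-receptor for adrenomedullin (edgeR adjusted p of 0.00152 and 0.00182), and Emcn, named after its values were seen, held 19 and 21 counts in DMSO and 0 in both treated libraries. The part of a lower endothelial share in the Cldn5 value was not tested.

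The keratins split. Krt7, a type II keratin of ducts and of trophoblast, fell, and the Krt8 and Krt18 pair of simple epithelia and Krt19 did not pass the test.

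Krt7 was at 10.8 and 6.26 CPM in DMSO and at 2.91 and 0.904 CPM in cucurbitacin I, without overlap. Its means were 8.54 ± 3.23 and 1.91 ± 1.42 CPM (SD, n = 2 each), with a log2 fold change of -2.15 (SE 0.56; edgeR adjusted p = 0.0353). The call rested on both controls: the log2 fold change was -1.70 without DMSO library 1 and -2.49 without DMSO library 2, with edgeR adjusted p of 0.15 and 0.0502. It was -3.23 without cucurbitacin I library 1 and -1.55 without cucurbitacin I library 2, still below 0.05 by edgeR (0.00621 and 0.0311). Against a fold change of 1.5 the adjusted p was 0.0887 by edgeR's glmTreat.

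Krt8 was at 106 and 44.7 CPM in DMSO and at 64.3 and 17.8 CPM in cucurbitacin I. Cucurbitacin I library 1 lay between the controls, so the groups overlapped. The log2 fold change was -0.87 (SE 0.66) with an edgeR adjusted p of 0.348. It was -2.08 without cucurbitacin I library 1 (edgeR adjusted p = 0.0273) and -0.12 without DMSO library 1 (0.93). The annotation holds a processed pseudogene, Krt8-ps, and no source used here says whether reads shared with it were counted.

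Krt18, the type I partner of Krt8, was at 205 and 92.1 CPM in DMSO and 215 and 61.0 CPM in cucurbitacin I. The treated libraries enclosed the controls. The means were 149 ± 80.1 and 138 ± 109 CPM (SD, n = 2 each), a log2 fold change of -0.11 (SE 0.63; edgeR adjusted p = 0.907). It turned to 0.58 without DMSO library 1 and to 0.53 without cucurbitacin I library 2. Krt19, the small type I keratin of ducts and progenitors, was at 20.5 and 7.32 CPM in DMSO and at 24.7 and 4.2 CPM in cucurbitacin I. Its log2 fold change was 0.06 (SE 0.84; edgeR adjusted p = 0.963), and it was -1.72 without cucurbitacin I library 1.

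**Figure D2:**
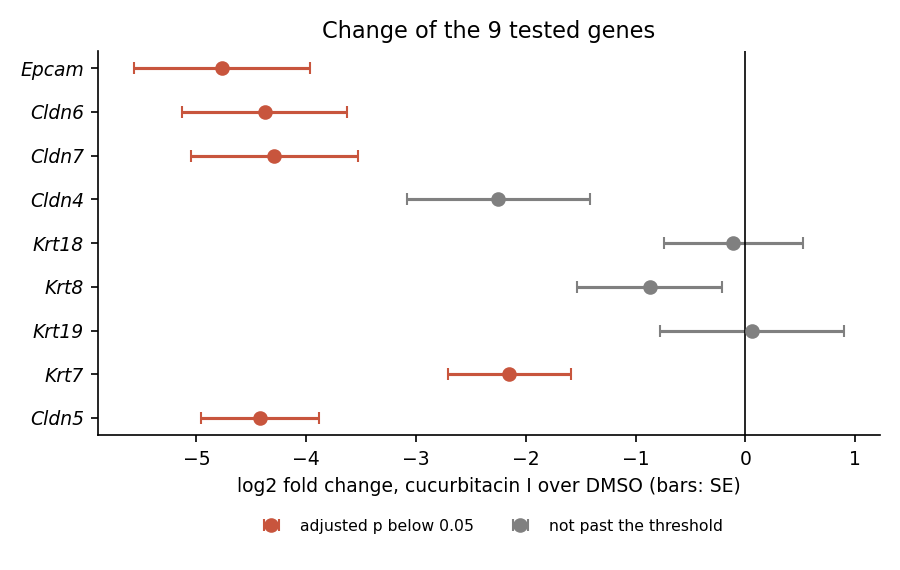
Log2 fold change of cucurbitacin I over DMSO for the 9 tested genes, with bars of 1 SE from edgeR; red points passed an adjusted p of 0.05 and grey points did not. Epcam, Cldn6, Cldn7 and Cldn5 lie between -4.77 and -4.29, Krt7 at -2.15, and Krt18 and Krt19 at -0.11 and 0.06.

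In the authors' deposited table the order was much the same with smaller changes, as Epcam had a log2 fold change of -3.23 (adjusted p = 1.78e-07) and Cldn6 of -3.13 (1.81e-07). That table called 6 of the 10 genes at 0.05, the 5 above and Cldn4, beside 38.4% of the 19592 genes to which it gives an adjusted p. Krt8 stood there at -0.63 (0.395), Krt18 at -0.08 (0.926) and Krt19 at 0.04 (0.971). DESeq2 run here on the raw counts gave log2 fold changes of -4.79 for Epcam and -4.39 for Cldn6. The deposited values may thus be another kind of estimate, and why they were smaller was not tested.

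Much of the spread between libraries was shared by the epithelial genes, so counts were also set against those of Krt8 within each library. These ratios were chosen after the values were seen. Krt18 counts per Krt8 count were 1.94 and 2.06 in DMSO and 3.34 and 3.44 in cucurbitacin I, with 95% counting intervals of 1.86 to 2.02, 1.92 to 2.21, 3.15 to 3.53 and 3.07 to 3.85. The ratio was thus 1.69 times higher in cucurbitacin I, with means of 2.00 ± 0.0872 and 3.39 ± 0.0693 (SD, n = 2 each). The intervals of the replicates overlapped within each group, and those of the groups did not. An exact 2-sided permutation test gave p = 0.333, the smallest that 2 libraries against 2 allow, and the same p holds for every ratio below.

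The Epcam ratio to Krt8 was 0.318 and 0.210 in DMSO and 0.0178 and 0.0229 in cucurbitacin I, 12.8 times lower. Cldn6 gave 0.835 and 0.538 against 0.0574 and 0.0941, which is 9.12 times lower, and Cldn7 gave 0.183 and 0.128 against 0.0140 and 0.0204, 9.06 times lower. In neither case did the groups overlap. Krt7 per Krt8 was 2.49 times lower in cucurbitacin I (0.102 and 0.140 against 0.0453 and 0.0509), and Krt19 per Krt8 was 1.69 times higher (0.193 and 0.164 against 0.384 and 0.237). Among the keratins, then, the ratio to Krt8 was higher in the treated libraries for the type I members Krt18 and Krt19 and lower for Krt7. Such a ratio cannot tell a change of its numerator from a change of Krt8, whose log2 fold change was -0.87 (SE 0.66). The Krt19 ratio was less steady than that of Krt18. Its 95% counting interval in cucurbitacin I library 2, 0.187 to 0.297, overlapped that of DMSO library 1, 0.177 to 0.211. It did not overlap that of cucurbitacin I library 1, 0.349 to 0.422.

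Within the claudin group the ratios to Epcam were closer to even. Cldn6 per Epcam was 2.63 and 2.56 in DMSO and 3.21 and 4.11 in cucurbitacin I, and Cldn7 per Epcam was 0.577 and 0.608 against 0.786 and 0.889. Cldn4 stood apart from these: its counts per Epcam count were 0.824 and 0.604 in DMSO and 4.46 and 4.56 in cucurbitacin I, 6.39 times higher. In DMSO Cldn4 therefore had fewer counts than Epcam, and in cucurbitacin I it had more.

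**Figure D3:**
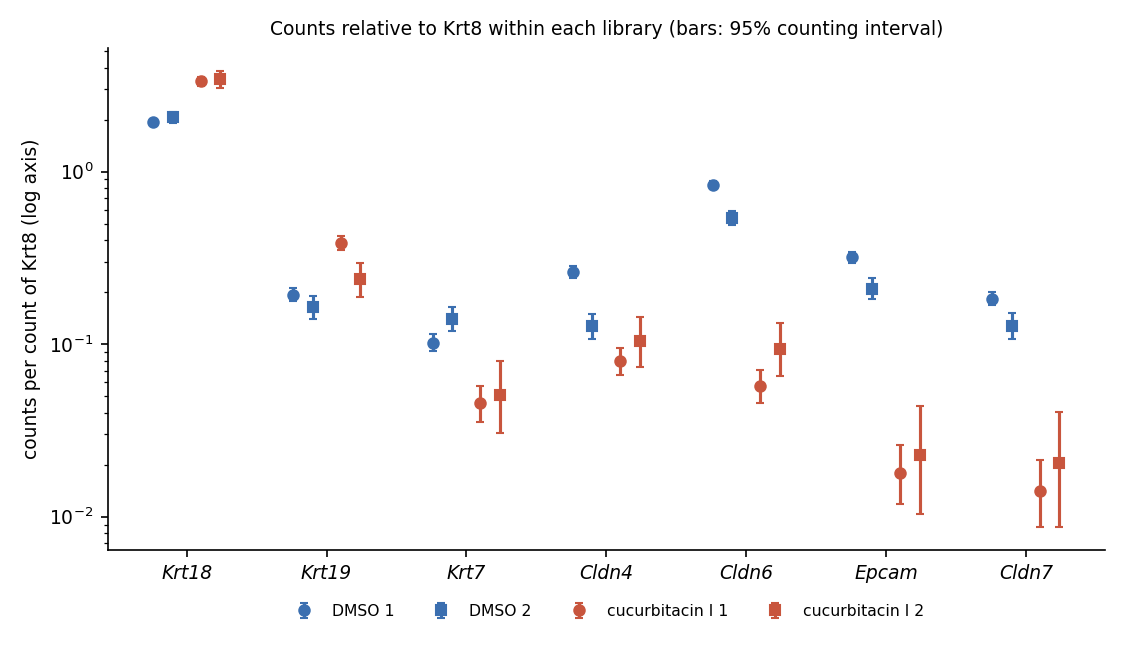
Counts of each gene per count of Krt8 within the same library, on a log axis, with bars of the 95% counting interval; circles are library 1 and squares library 2, blue DMSO and red cucurbitacin I. Krt18 sits near 2 in DMSO and above 3 in cucurbitacin I with little spread, and Epcam, Cldn6 and Cldn7 drop about 10-fold.

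The epithelial genes were uneven between the libraries of a group. In both groups library 1 was higher than library 2 for all 9 of them, Cldn3 included, as for 27.3% of all genes tested. The ratio of library 1 to library 2 was 3.59 in DMSO and 2.82 in cucurbitacin I for Epcam, 3.68 and 2.21 for Cldn6, and 4.90 and 2.77 for Cldn4. For Krt8 it was 2.37 and 3.62, for Krt18 2.23 and 3.52, and for Krt19 2.80 and 5.88. For Cldn5 it was 0.847 in DMSO, and in cucurbitacin I 1 count in each library cannot show a ratio. Of the 8 tested epithelial members 7 were more than 2-fold higher in library 1 in both groups, and Krt7 was the exception at 1.73 in DMSO, against 81 of all 16722 genes tested, or 0.484%. The same held for 4 of 22 tested epithelial adhesion genes, 2 of 15 epithelial regulators, 1 of 26 tight junction genes and 1 of 4 stem cell markers. It held for 0 of 5 other claudins and 0 of 5 other keratins. Of further marker lists it held for 0 of 13 cardiomyocyte, 0 of 15 endothelial, 0 of 16 endodermal and 0 of 5 surface ectoderm and trophoblast genes. More than 2-fold higher in library 2 of both groups were 122 of all 16722 genes tested. Among these were 2 of the 15 endothelial genes and 0 of the 8 tested epithelial members. The labels do not say that the library numbers mark a shared culture or day.

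**Figure D4:**
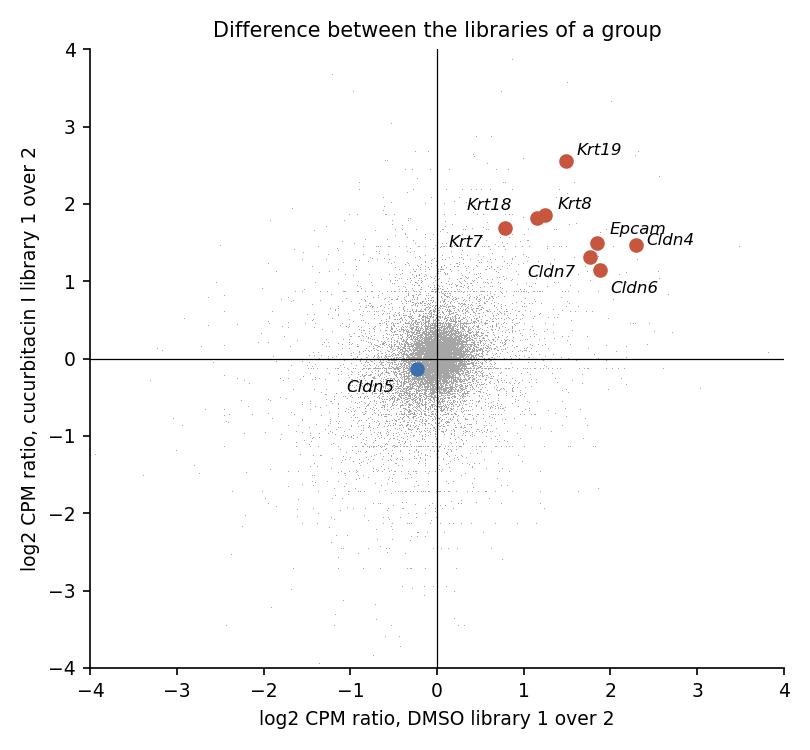
Log2 CPM ratio of library 1 over library 2 in DMSO on the x axis and in cucurbitacin I on the y axis, 1 grey point per tested gene within the axis limits, with the epithelial genes in red and Cldn5 in blue. The red points lie in the upper right, away from the cloud around 0, and Cldn5 lies inside the cloud, with a y value from 1 count in each library.

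Per kilobase of exon, Krt18 led in DMSO with 103 ± 55.7 CPM per kb, followed by Krt8 with 38.5 ± 22.1 and Cldn6 with 32.7 ± 26.5 (SD, n = 2). Epcam, Cldn4, Krt19 and Cldn7 followed with means of 9.81, 9.20, 7.49 and 6.46 CPM per kb, and their ranges over the libraries overlapped. Within each DMSO library Epcam was above Cldn7 with either measure of length. Krt7 had 1.21 ± 0.458, Cldn5 0.72 ± 0.0843 and Cldn3 0.596 ± 0.471 CPM per kb. The ranges of Krt18 and Krt8 did not overlap in DMSO, nor did those of Cldn7 and Krt7 or Krt7 and Cldn5, whereas the other neighbours overlapped. Within each DMSO library Cldn6 was nonetheless above Epcam, at 51.4 against 15.3 and 14 against 4.28 CPM per kb. In cucurbitacin I the order began with Krt18 at 95.9 ± 75.6, Krt8 at 21 ± 16.8 and Krt19 at 7.79 ± 7.82 CPM per kb, with Cldn4 at 1.92 ± 1.27 and Cldn6 at 1.56 ± 0.828 after them. The 3 leading genes were then keratins, where Krt18 lay above Krt8 in both libraries. The ranges of Krt8 and Krt19 overlapped, but Krt8 was above Krt19 within each library, at 32.8 against 13.3 and 9.07 against 2.27 CPM per kb. Epcam was at 0.354 ± 0.239, Cldn7 at 0.324 ± 0.196 and Krt7 at 0.27 ± 0.201 CPM per kb and overlapped, and Cldn5 had the lowest mean at 0.0304 ± 0.0021. Lengths of the longest transcript in place of the exon union kept Krt18, Krt8, Cldn6 and Epcam first in DMSO, where Cldn7 moved ahead of Cldn4 and Krt19, and put Epcam behind Cldn7 and Krt7 in cucurbitacin I.

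Other genes of the same structures were read from lists, beside the 19.5% of all genes tested that fell and the 13.9% that rose. Of 21 other claudins 5 were tested, of which 2 rose, 0 fell and 3 did not pass, with a median log2 fold change of -1.11. The count of 0 lower became 1 by DESeq2 and 3 with no filter on low counts. Cldn12, a claudin linked to calcium transport in gut, rose by 0.71 (edgeR adjusted p = 0.0115), and the gene listed as Cldn25 by 0.58 (0.0115), whose identifier is Cldnd1 in GENCODE M21. Without DMSO library 1 both were lost (edgeR adjusted p of 0.0596 and 0.0764), and without DMSO library 2 Cldn12 was lost (0.055). Of 25 other keratins 5 were tested, with 1 higher, 1 lower and 3 not past. Krt20, a type I keratin of gut and bladder epithelium, was at 3.54 and 2.98 CPM in DMSO and at 27.9 and 12.1 CPM in cucurbitacin I. That is a rise of 2.62 on the log2 scale (SE 0.43; edgeR adjusted p = 0.0107), and 0.0541 without DMSO library 1. Krt1, an epidermal type II keratin, fell by 2.09 (edgeR adjusted p = 0.0186), a call that DESeq2 (0.0761) and the omission of any 1 library did not keep.

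Of 26 tested genes of the tight junction and its polarity complexes 11 fell, 3 rose and 12 did not pass. Their median log2 fold change was -0.44, and of all genes tested 19.5% fell and 13.9% rose. Ocln, the junction strand protein occludin, was at 10.9 and 5.19 CPM in DMSO and at 0.82 and 0.633 CPM in cucurbitacin I (log2 fold change -3.46, edgeR adjusted p = 0.00664). Crb3, an apical polarity protein, changed by -3.48 (0.0107) and Amotl1, an angiomotin-like junction protein, by -0.87 (0.004). Magi3, a scaffold protein, rose by 0.82 (edgeR adjusted p = 0.0178), and did not pass without DMSO library 1 (0.0925) or 2 (0.0665).

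Of 22 tested epithelial adhesion and surface genes 10 fell, 5 rose and 7 did not pass, and their median log2 fold change was -1.12. The shares over all genes tested were 19.5% lower and 13.9% higher. The log2 fold change was -1.03 for Cd24a, a surface glycoprotein, -2.17 for Spint2, a serine protease inhibitor, and -3.46 for Tmprss2, a membrane serine protease (edgeR adjusted p of 0.00679, 0.00773 and 0.00867). Cdh1, the epithelial cadherin, named after its values were seen, was at 68.2 and 18.6 CPM in DMSO and at 9.22 and 2.98 CPM in cucurbitacin I. Its log2 fold change was -2.82 (SE 0.77; edgeR adjusted p = 0.0397), and it did not pass without DMSO library 1 (0.154), without cucurbitacin I library 2 (0.0608) or by limma-voom (0.0805). The plaque protein genes Jup and, named after its values were seen, Dsp rose by 1.03 and 1.33 (edgeR adjusted p of 0.00588 and 0.0117). Both also belong to the junctions between heart muscle cells, and 8 of 13 cardiomyocyte markers rose, with a summed level of 9570 and 12200 CPM in DMSO and 19300 and 24500 CPM in cucurbitacin I. Its part in the rise of Jup and Dsp was not tested.

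**Figure D5:**
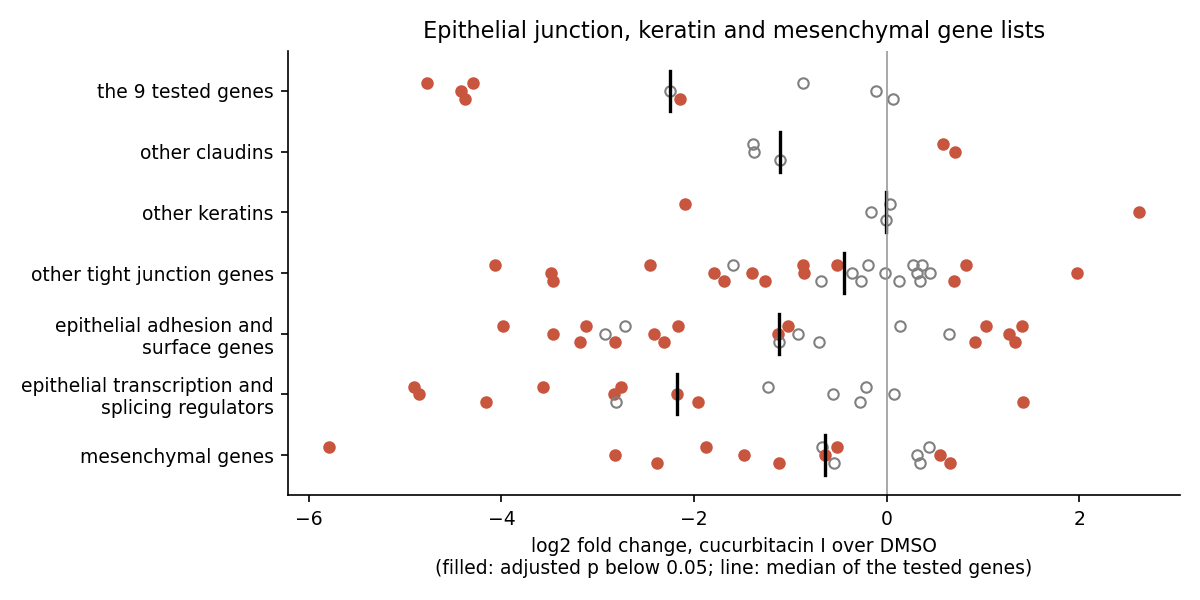
Log2 fold change of cucurbitacin I over DMSO for each tested gene of the member set and 6 gene lists, with filled red points past an adjusted p of 0.05 by edgeR, open points not past it, and a black line at the median of the list. The median is -2.25 for the 9 tested members, -2.18 for the epithelial regulators and -0.64 for the mesenchymal genes.

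Of 15 tested epithelial transcription and splicing regulators 8 fell, 1 rose and 6 did not pass, with a median log2 fold change of -2.18. Over all genes tested 19.5% fell and 13.9% rose. Grhl3, a Grainyhead-like factor of surface epithelia, changed by -1.96 and Elf3, an epithelial ETS factor, by -2.76 on the log2 scale (edgeR adjusted p of 0.00588 and 0.00763). Ovol1, a zinc finger factor, rose by 1.41 from 23 and 17 counts in DMSO to 38 and 48 counts in cucurbitacin I (edgeR adjusted p = 0.0297), and did not pass without DMSO library 1 (0.11), DMSO library 2 (0.13) or cucurbitacin I library 2 (0.113).

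Of 15 tested mesenchymal genes 8 fell, 2 rose and 5 did not pass, beside 19.5% lower and 13.9% higher over all genes tested. Their median log2 fold change was -0.64. Twist2, Twist1 and Snai1, transcription factors of mesenchyme, changed by -5.79, -1.48 and -2.38 (edgeR adjusted p of 0.00172, 0.00275 and 0.00278). The zinc finger repressors of the Zeb and Snail families, whose letter string was searched above, moved in different directions: Zeb1 rose by 0.55 (edgeR adjusted p = 0.0181), Zeb2 fell by 0.64 (0.0162), and Snai2 was at -0.55 (0.0986). Zeb2 and Snai2 were named after their values were seen. The Zeb1 call was lost without DMSO library 1 (0.107) or 2 (0.0611) and with library totals as the only scaling (0.0876). The Zeb2 call was lost without DMSO library 1 (0.0761) or 2 (0.0646), and Snai2 passed without cucurbitacin I library 2 (-0.81, adjusted p = 0.0352).

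Marker lists of cell types outside the heart are read here against the 19.5% of all tested genes that were lower. Of 16 tested endoderm and yolk sac markers 13 fell, 0 rose and 3 did not pass, with a median log2 fold change of -4.33. The list summed to 994 and 1410 CPM in DMSO and to 436 and 591 CPM in cucurbitacin I, and Gata4 and Gata6, which heart cells also express and which did not pass, made up 410 and 565 CPM of the latter. Without this pair, set aside after the values were seen, the sums were 593 and 863 CPM in DMSO and 25.9 and 26.7 CPM in cucurbitacin I. The cells come from an inducible Gata6 line, and whether Gata6 counts include reads of the transgene was not tested. The log2 fold change was -7.67 for Afp, the fetal serum protein, and -6.22 for Ttr, a thyroid hormone carrier (edgeR adjusted p of 0.00176 and 0.000741). All 5 tested markers of surface ectoderm and trophoblast fell, from sums of 159 and 90.3 CPM to 14.5 and 11.9 CPM. The log2 fold change was -3.38 for Hand1 and -2.80 for Gata3 (edgeR adjusted p of 0.00252 and 0.00759). Hand1, which heart cells also express, made up 120 and 70.9 CPM of the DMSO sums. The untested genes of this list were scarce in DMSO, with 26 and 6 counts of Krt14, 11 and 5 of Cdx2 and fewer of the others. Of 4 tested markers of undifferentiated embryonic stem cells 2 fell and 2 did not pass, with sums of 65.6 and 31.8 CPM in DMSO and 10.7 and 7.59 CPM in cucurbitacin I. Most of these sums was Sox2 and Lin28a, which other embryonic cells also express, and the rest came to 4.78 and 4.86 CPM in DMSO and 2.91 and 3.21 CPM in cucurbitacin I. The defining markers were near 0, with 5, 6, 6 and 9 counts of Nanog and 4, 8, 0 and 3 counts of Pou5f1 in DMSO libraries 1 and 2 and cucurbitacin I libraries 1 and 2. Sox2, a pluripotency and neural factor, went from 36.5 and 17.3 CPM to 3.36 and 2.98 CPM (log2 fold change -3.08, edgeR adjusted p = 0.00588). Lin28a fell by 2.53 (0.0346) and did not pass without DMSO library 1 (0.144).

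The sum of Sox2 and Lin28a and the surface ectoderm sum were higher in library 1 than in library 2 of each group. The surface ectoderm sums in cucurbitacin I lay close, at 14.5 and 11.9 CPM. Of the 5 tested markers of that list 0 were over 2-fold higher in library 1 of both groups. Being higher in library 1 of both groups held for 27.3% of all genes tested. The endoderm sum without Gata4 and Gata6 was higher in library 2 in DMSO and nearly level in cucurbitacin I. Mesothelial and epicardial markers summed to 63.8 and 227 CPM in DMSO and 70.8 and 94.6 CPM in cucurbitacin I, where 2 of 9 tested fell, Aldh1a2 with a log2 fold change of -3.87 and Tcf21 of -3.66 (edgeR adjusted p of 0.0126 and 0.0218). Blood markers summed to 175 and 207 CPM in DMSO and 24.3 and 34.9 CPM in cucurbitacin I, and 8 of 10 fell, among them Pf4 and Gata1. Both lists are read against the 19.5% of all genes tested that were lower. What part these cell types had in the levels of Epcam, the claudins and the keratins was not tested.

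The genes whose pattern over the 4 libraries was most like that of 3 members were found by Euclidean distance between centred log2 CPM, among 10681 genes with a mean of at least 5 CPM. Nearest to Epcam were Spink3, a secreted trypsin inhibitor, at 0.433, Rnf152, a lysosomal ubiquitin ligase, at 0.647, and Car4, a membrane carbonic anhydrase, at 0.755. Spink3 was at 15.7 and 6.07 CPM in DMSO and at 0.574 and 0.136 CPM in cucurbitacin I. Nearest to Krt8 were Sall4, a zinc finger factor of stem cells, at 0.477, Glis3, a Krüppel-like zinc finger factor, at 0.575, and Maff, a small Maf factor, at 0.596. None of these 3 passed the edgeR test (adjusted p of 0.135, 0.162 and 0.651). Nearest to Cldn5 were Itga2b, the platelet integrin subunit, at 0.157, Ube2l6, an ISG15-conjugating enzyme, at 0.258, and Sned1, an extracellular matrix protein, at 0.265. Itga2b was at 63.1 and 83.2 CPM in DMSO and at 7.46 and 8.49 CPM in cucurbitacin I. The log2 fold changes of these 3 genes were -3.20, -3.12 and -3.01, against -4.42 for Cldn5, whose centred values are pulled together by the prior count of 2 at 1 count in each treated library. With 4 libraries such a likeness is a description of these samples.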

How the data were processed

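RNA sequencing libraries of 2 DMSO and 2 cucurbitacin I samples were analysed from the authors' deposited table, grouped by the library titles. Reads were processed with STAR 2.3.0e and HTSeq 0.6.0 on mm10, per the submitters' processing notes; no source used here gives the annotation release, strand setting or treatment of multi-mapping reads. Per the file headers the table holds raw counts, the authors' normalized signal (counts divided by a size factor per library), a log2 fold change, its standard error and statistic (a score in each row) and p-values. Its column names are those of DESeq2.

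The table has 43374 lines, of which 4195 only add another human ortholog to a gene and were dropped, and 27 symbols stored as dates were restored. Of the 39179 identifiers 24380 had a count, and 37693 are in GENCODE M21, whose exons gave gene lengths. Counts were filtered with filterByExpr (minimum count 10), scaled by TMM and tested with edgeR 4.0.16 (glmQLFit and glmQLFTest, R 4.3.3), with Benjamini-Hochberg adjustment over 16722 genes and a threshold of 0.05. The common biological coefficient of variation was 15.7%, with 2 residual degrees of freedom. The test was checked on simulated counts in which 200 genes were changed and variation followed the trend over all genes. That check does not speak to the epithelial members' own coefficients, from 38.4% in Krt7 to 57.2% in Krt19. Likeness used log2 CPM with a prior count of 2. Counting intervals have a confidence level of 95% and cover counting error only.

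Alternatives were DESeq2 1.42.0, limma-voom (limma 3.58.1), other scalings and filters, a replicate block, leaving out each library and a 1.5-fold glmTreat. Text names all members, up to 3 genes per pathway list in its more frequent direction and 1 in the other by adjusted p, up to 2 per marker list, and 3 genes by likeness. A gene that this rule names is not reported here. Members, lists and motifs were chosen with earlier results of these data known.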

Additional observations from a re-analysis of the deposited data

How the results depend on the processing

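The falls of Epcam, Cldn6, Cldn7 and Cldn5 kept direction and call in every alternative at a threshold of 0.05 (Cldn5 was not tested with a mean of at least 50 counts). At an adjusted p below 0.01, 1262 genes were lower and 492 higher, against 3259 and 2318; 1 member was lower (Cldn5), against 5; the lower and higher counts were 2 and 0 of the tight junction, 3 and 3 of the adhesion, 3 and 0 of the regulator and 5 and 0 of the mesenchymal genes, with 0 called other keratins and 0 other claudins. Library totals alone gave 4767 genes lower and 1059 higher, 1 other claudin lower and 0 mesenchymal genes higher, and moved the median over all tested genes from -0.01 to -0.24. DESeq2 gave 1 other claudin lower, 0 other keratins lower and 0 regulators higher. Without a filter 3 other claudins and 2 other keratins were lower; with a mean of at least 50 counts 5 regulators and 0 other keratins were lower, and 0 regulators higher.

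Leaving out 1 library at a time gave 1461 to 3001 genes lower and 389 to 2109 higher, 4 to 6 members lower, 0 to 2 other claudins lower and 0 to 2 higher, 0 to 1 other keratins in each direction, 4 to 11 tight junction genes lower and 0 to 8 higher, 6 to 14 adhesion genes lower and 3 to 5 higher, 4 to 11 regulators lower and 0 to 1 higher, and 5 to 10 mesenchymal genes lower and 0 to 3 higher. An arm left with 1 library was assumed to vary like the other. Log2 fold changes turned in sign for Krt18 (0.58 without DMSO library 1, 0.53 without cucurbitacin I library 2; range -1.28 to 0.58), for Maff (0.11 and 0.25 without the same libraries; range -1.43 to 0.25) and for Krt19 (-0.20 with library totals, -0.25 by limma-voom, -0.50 without DMSO library 2; range -1.72 without cucurbitacin I library 1 to 0.99). The cause was not tested.

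With the replicate number as a block, 7 members were lower, as Cldn4 (-2.10, edgeR adjusted p = 0.00396) and Krt8 (-1.01, 0.00826) passed. Krt18 was at -0.26 (SE 0.17, 0.281) and Krt19 at -0.20 (SE 0.27, 0.6), with SEs of 0.63 and 0.84 without the block. The library 1 minus 2 differences of the groups correlated at 0.242 over 16722 genes, but 2 pairs and the labels do not establish a pairing. Depth limits Cldn3 and Cldn5 most, with 0 to 35 counts.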
